A study of Rattus norvegicus with 13 samples.

Results

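Default sites are places of open chromatin, marked by H3K4me3 for other reasons than recombination, at which meiotic double-strand breaks (DSBs) form when PRDM9 is missing. The windows described here carried DMC1 signal both in SHR testes without functional PRDM9 and in wild-type SHR testes. Whether each has H3K4me3 was not analysed here, and a default window means one with DMC1 signal without PRDM9. They were the windows of chromosomes 1 to 20 with a hotspot strength of 40 or more in the SHR Prdm9 KO/KO library and of 20 or more in the wild-type SHR library. These limits were met by 1157 of the 91120 autosomal windows, or 1.27%, in a table of 96640 windows over all chromosomes. The windows were chosen by their measured strengths in both libraries, so that these values are a description and not a finding, and the same holds for the 4.37% of the autosomal windows with KO/KO strength of 40 or more that met the limit in wild-type SHR.

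PRDM9 is a zinc-finger protein of meiotic cells that binds particular DNA sequences, trimethylates histone H3 there and thereby places DSBs. Each DSB is resected to single-stranded DNA, which is coated by the recombinase DMC1. In mammals with an active PRDM9 most DSBs lie away from gene promoters, and without PRDM9 they move to promoters and other sites with H3K4me3. Single-stranded DNA sequencing (SSDS) after chromatin immunoprecipitation (ChIP) with an anti-DMC1 antibody recovers these ends from testis, and a DSB hotspot appears as a window in which such fragments pile up.

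The table holds 5 libraries of adult testes out of 13 samples in the series. SHR/OlaIpcv, the spontaneously hypertensive rat, gave 3 of them, from a wild-type male, from a heterozygote with 1 functional Prdm9 copy (Prdm9+/-, KO/wt) and from a homozygote with none (Prdm9-/-, KO/KO). By the methods of the study, the KO/KO male was homozygous for the truncating deletion KO39 and the wild-type male was its littermate. The allele of the KO/wt animal was not given in the sources used here. WKY (Wistar Kyoto), wild-type, has the same Prdm9 allele as SHR, and BN/RIJHsd (Brown Norway), wild-type, has another. There was 1 library per strain and genotype, which leaves no test of a condition and hence no p-value. Intervals are 95% intervals over windows, Wilson intervals for percentages and binomial order-statistic intervals for medians, and cover counting of windows only. Windows are not replicates.

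Strength is the authors' score per window and library, a whole number that can lie below 0, with a scaling that was not stated. For orientation, windows with a called hotspot on autosomes had a median strength of 72 for wild-type, 70 for KO/wt, 64 for KO/KO, 210 for WKY and 71 for BN. The strength of 20 that was asked of wild-type SHR was therefore low, since 95% of its called autosomal hotspots lay above about 27. WKY strengths ran higher than those of the other libraries, and a WKY strength of 100 or more was taken as a PRDM9 site of the SHR and WKY allele at the same place, called a WKY site here. Genes and sequences of the windows were not analysed here, because no genome or annotation of the rn5 assembly was used.

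The 1157 windows were divided by the WKY site and by position. A WKY site was present in 663 windows, or 57.3% (54.4 to 60.1%), against 36.3% of all autosomal windows and 0.743% of the 25289 other default windows, which had KO/KO strength of 40 or more and wild-type SHR strength below 20. Wild-type SHR and WKY share PRDM9 sites, so that this difference follows from the choice of windows. Among 26394 windows with wild-type SHR strength of 20 or more and KO/KO strength below 40, the share was higher, at 90.1% (89.8 to 90.5%). Another window started within 3000 bp of 664 windows, or 57.4% (54.5 to 60.2%), against 17.4% of all autosomal windows and 15.8% of the other default windows. Both features went together, as a neighbour was found for 68.3% of the windows with a WKY site and for 42.7% of those without. This gave 283 isolated windows without a WKY site, 211 without a WKY site and with a neighbour, 210 isolated windows with a WKY site, and 453 with both a WKY site and a neighbour. Chained over starts up to 3000 bp apart, the 1157 windows lay at 943 loci, of which 744 held 1 of the windows, 184 held 2 and 15 held 3.

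**Figure D1:**
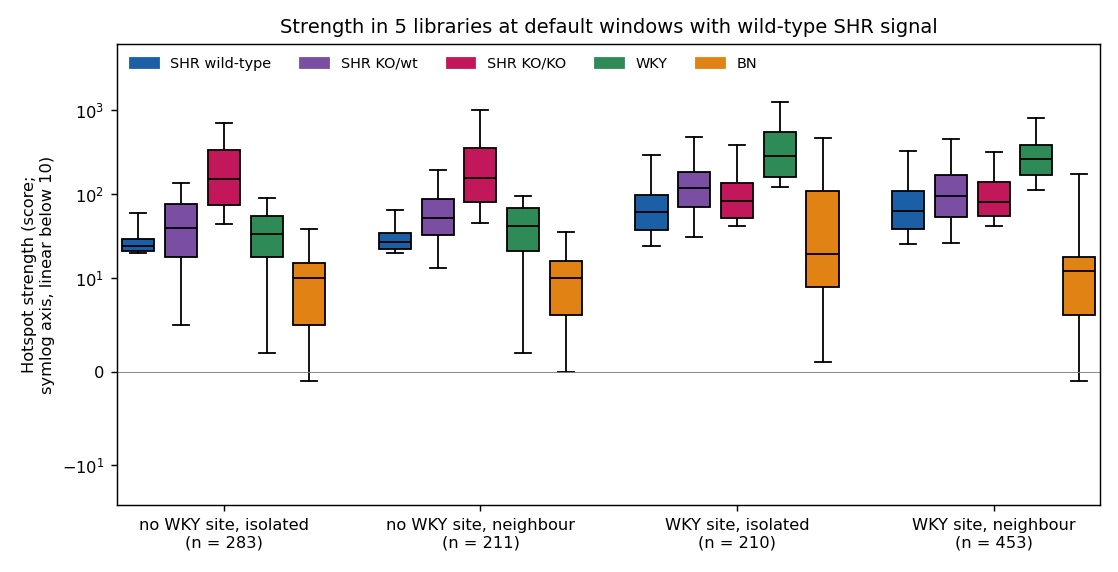
Strength (authors' score, symlog axis) of the 5 libraries in the 4 sets of windows; boxes span the quartiles with the median as a line, and whiskers run from the 5th to the 95th percentile of windows. Without a WKY site the KO/KO library is highest, with medians of 150 and 154, and with a WKY site WKY is highest, with medians of 278 and 257, while isolated windows with a WKY site also have the widest BN box.

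The sets were split on WKY strength, and WKY strengths run higher in general, so that the place of WKY in the order of the libraries is largely fixed by the split. In the isolated windows without a WKY site the median strength was 24 for wild-type, 39 for KO/wt, 150 for KO/KO, 33 for WKY and 10 for BN. In windows without a WKY site but with a neighbour the medians were similar, at 27, 52, 154, 42 and 10 in the same order. In isolated windows with a WKY site they were 60.5 for wild-type, 117 for KO/wt, 83 for KO/KO, 278 for WKY and 19.5 for BN. With both a WKY site and a neighbour they were 63, 95, 79, 257 and 12.

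The lower limit of wild-type strength passed through a continuum. At a wild-type strength of exactly 20 there were 78 windows with KO/KO strength of 40 or more, with a median KO/KO strength of 147.5 and a median KO/wt strength of 25.5. At 19, just outside, there were 93, with medians of 123 and 24. Of those just inside, the highest in KO/KO lay on chromosome 13 of rn5 from 49430953 to 49433953, with strengths of 20 for wild-type, 183 for KO/wt and 2048 for KO/KO, and another lay on chromosome 12 from 44324371 to 44327371, with 20, 37 and 1029. The highest just outside lay on chromosome 11 from 93463431 to 93466431, with 19, 25 and 1024, and on chromosome 9 from 110583622 to 110586622, with 19, 168 and 905. Another window started 550, 910, 469 and 1981 bp away from these windows, in the order given. Only the one on chromosome 9 had a KO/KO call, and that on chromosome 11 was called in WKY alone, with a WKY strength of 203. At the KO/KO limit, 20 windows had a strength of exactly 40 and 21 had 39, with median wild-type strengths of 58.5 and 45. The strongest in wild-type SHR were at 410 (chromosome 2 from 53149197 to 53152197) and 330 (chromosome 3 from 52845852 to 52848852) inside, and at 215 (chromosome 2 from 157124870 to 157127870) and 131 (chromosome 5 from 51715405 to 51718405) outside.

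Hotspot calls, which the rule did not ask for, followed the label only in part. Of the 1157 windows, 694 (59.98%) had a KO/KO call, 577 (49.9%) a KO/wt call, 429 (37.1%) a WKY call, 398 (34.4%) a wild-type call and 56 (4.84%) a BN call. Over all autosomal windows the calls were 38.8% for KO/KO, 21.6% for KO/wt, 38.3% for WKY, 21.8% for wild-type and 20.8% for BN. In the 25289 other default windows a KO/KO call was more frequent than in the 1157, at 97.0% (96.8 to 97.2%). Calls in both KO/KO and wild-type SHR were present in 191 windows, or 16.5% (14.5 to 18.8%), against 0.293% of all autosomal windows, and 188 of the 191 were also called in KO/wt. These calls come from the libraries whose strengths chose the windows, so that the higher share follows from the choice. Another 503 were called in KO/KO but not in wild-type SHR, another 207 in wild-type SHR but not in KO/KO, and 256 in neither. The description as a default site with wild-type breaks thus rests on calls in both libraries for 191 windows, and for the others on at least 1 strength without a call. A single window was called in all 5 libraries, on chromosome 14 from 107870145 to 107873145, with strengths of 109 for wild-type, 525 for KO/wt, 1561 for KO/KO, 180 for WKY and 63 for BN.

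**Figure D2:**
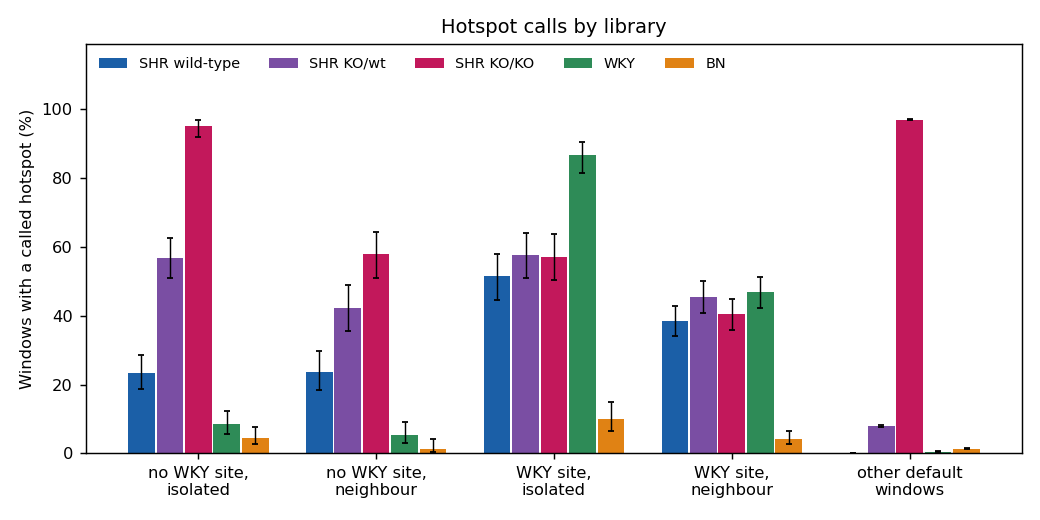
Percentage of windows with a called hotspot in each library, for the 4 sets and for the 25289 other default windows, with Wilson 95% intervals as bars. In isolated windows without a WKY site the KO/KO call is at 95.1% and the wild-type call at 23.3%, and in isolated windows with a WKY site they are at 57.1% and 51.4%.

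The isolated windows without a WKY site had neither a strong WKY site nor another start within 3000 bp, and 230 of them had none within 5000 bp. Of these 283 windows, 269 were called in KO/KO (95.1%), while 66 had a wild-type call (23.3%), 161 a KO/wt call (56.9%), 24 a WKY call and 13 a BN call. All 3 SHR libraries had a call in 63 of them. Wild-type strength stayed low, at 20 to 29 in 213 of the 283 windows (75.3%), with a highest value of 242. KO/KO strength spanned 40 to 1571.

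The strongest of these windows in KO/KO had wild-type strengths of 21 to 30, close to the limit. The window on chromosome 3 from 13978598 to 13981598 had strengths of 1571 for KO/KO, 100 for KO/wt, 30 for wild-type, 27 for WKY and 17 for BN. On chromosome 3 from 52579167 to 52582167 they were 1489, 72, 23, 1 and 1 in the same order. Another window started 4618 bp away from the first and 4259 bp away from the second. On chromosome 20 from 51116910 to 51119910 they were 1229, 177, 25, 7 and 23. All 3 windows were called in each SHR library and in neither WKY nor BN. The fourth, on chromosome 1 from 8855798 to 8858798, had 1106, 243, 21, 43 and 32 and was called alike, and the fifth, on chromosome 6 from 81922417 to 81925417, had 1097, 64, 21, 31 and 4 and was called in KO/KO and KO/wt alone. Wild-type strength was 1.54 to 2.03% of KO/KO strength in these 5 windows. KO/wt strength was 4.84 to 22.0% of it, and in each of the 5 windows it lay between the other genotypes.

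The strongest of these windows in wild-type SHR were another kind, with weak KO/KO strength. The highest, on chromosome 1 from 186132814 to 186135814, had 242 for wild-type, 14 for KO/wt, 87 for KO/KO, 44 for WKY and 23 for BN, and it was called in wild-type SHR alone. The next, on chromosome 12 from 8175691 to 8178691, had 222, 629, 44, 31 and 7 in that order. On chromosome 20 from 54410910 to 54413910 the strengths were 179, 169, 78, -9 and 0. The windows on chromosome 1 from 246635586 to 246638586 (122, 197, 57, 40 and 19) and on chromosome 2 from 68689032 to 68692032 (120, 171, 40, 11 and 14) were similar. The last 4 were called in the 3 SHR libraries and not in WKY or BN. All 5 had more strength in wild-type SHR than in KO/KO, whereas KO/KO was the higher in 266 of the 283 windows. By KO/wt strength the leading windows also included chromosome 16 from 2520045 to 2523045, with 54 for wild-type, 235 for KO/wt and 872 for KO/KO, and chromosome 3 from 64649760 to 64652760, with 60, 199 and 199.

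**Figure D3:**
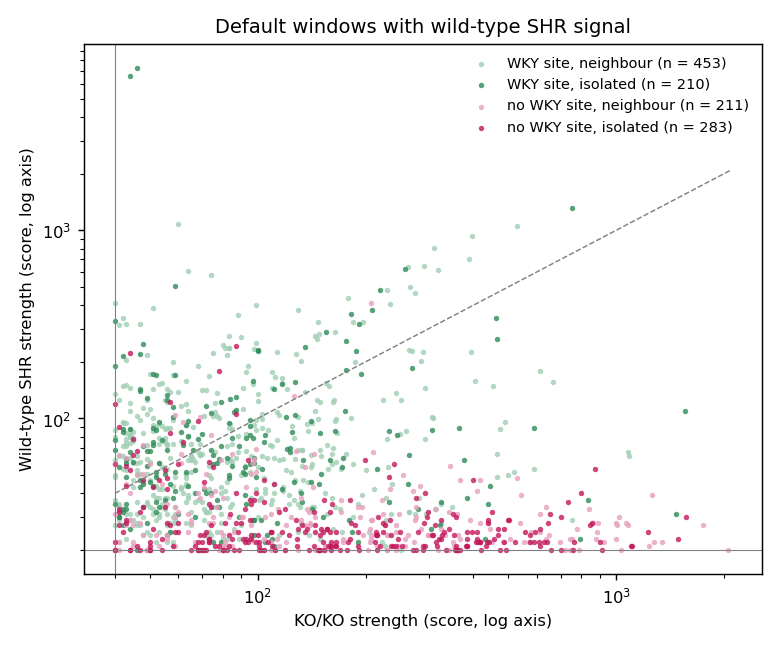
Wild-type SHR strength against KO/KO strength (authors' scores, log axes) for the 1157 windows, coloured by set; grey lines mark the limits of 20 and 40 and the dashed line marks equal strength. Windows without a WKY site lie mostly along the lower edge, at wild-type strengths of 20 to 29 whatever the KO/KO strength, and windows with a WKY site fill the upper left, with 2 windows at wild-type strengths of 7282 and 6649.

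The limits did not use KO/wt strength, although a KO/wt call alone could bring a window into the table. KO/wt strength was 20 or more in 1045 of the 1157 windows, or 90.3% (88.5 to 91.9%), against 33.0% of all autosomal windows and 19.1% of the other default windows. Among the 694 windows with a KO/KO call the share was 85.4% (82.6 to 87.9%). In the 26394 windows with wild-type SHR strength of 20 or more and KO/KO strength below 40 the share was 82.3%. In isolated windows without a WKY site it was 20 or more in 208 of 283, or 73.5% (68.1 to 78.3%), against 16.5% (16.0 to 17.0%) of the 21236 other default windows of that kind. Among 2034 isolated windows without a WKY site, but with wild-type strength of 20 or more and KO/KO below 40, the share was 67.0% (64.9 to 69.0%). High KO/wt strength was thus common at windows with wild-type signal, default or not. The median KO/wt strength was 30 (28 to 32) in the 2034 windows with KO/KO strength below 40. It was 39 (32 to 45) in the 283 windows and 9 in the 21236 other default windows. KO/KO strength was also higher, with medians of 150 and 89, so the comparison was repeated at like KO/KO strength. At KO/KO strengths of 40 to 59 the median KO/wt strength was 30 (20 to 52) in the 45 windows with wild-type signal and 6 in the 5503 without. At 60 to 99 and 100 to 199 the medians were 25.5 (17 to 39) against 8 and 29.5 (21 to 34) against 11. At 200 to 399 it was 46 (31 to 63) in 59 windows against 19 (18 to 19) in 2659, and at 400 to 799 it was 85 (65 to 95) in 43 windows against 32 (30 to 34) in 580. KO/wt strength was thus higher at windows with wild-type signal in each of these ranges, and the medians at 800 or more, 107 (64 to 235) in 10 windows and 51 (40 to 57) in 49, lay in the same order. BN medians over the 6 ranges, from weak to strong, were 11, 9.5, 8, 11, 11 and 14 against 7, 8, 8, 9, 9 and 10, with overlapping intervals in each range. BN strength was 20 or more in 22.2% (12.5 to 36.3%) against 5.09% (4.54 to 5.70%) at 40 to 59. At 60 to 99 the shares were 15% (8.10 to 26.1%) against 5.02% (4.51 to 5.59%), and in both ranges the intervals do not overlap. At 100 to 199 they were 9.09% (4.23 to 18.4%) against 5.10% (4.58 to 5.68%), where the intervals overlap, as they do above. At 40 to 99, 91 of the 105 windows had a KO/KO call, so the others were in the table through other libraries. Of the 40 windows of the set with BN strength of 20 or more, 28 had a KO/KO call and 9 had no call in any SHR library. The ranges were not split by call. WKY strengths were limited to below 100 by the choice of the set. Their medians were 44 (37 to 55) against 19 at KO/KO strengths of 40 to 59 and 41.5 (29 to 54) against 19 (19 to 20) at 60 to 99. They were 33 (29 to 40) against 19 (19 to 20) at 100 to 199 and 31 (24 to 38) against 20 (19 to 21) at 200 to 399. Above, the intervals overlapped, with 24 (17 to 33) against 21 (20 to 23) at 400 to 799 and 20.5 (5 to 40) against 15 (11 to 25) at 800 or more.

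Within the set, KO/wt strength lay above wild-type strength in 181 of the 283 windows (64.0%, 58.2 to 69.3%), a lower share than the 80.5% of the other default windows of that kind, whose wild-type strength was below 20 by definition. It lay between wild-type and KO/KO strength in 156 (55.1%), against 80.4% of the others. Among the 53 with KO/KO strength of 400 or more, KO/wt lay above wild-type in 51, and the median KO/wt strength was 87 against 23 for wild-type SHR. Among the 105 with KO/KO strength of 40 to 99 it lay above in 50, with a median of 27 in both libraries.

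Without any limit on wild-type strength, wild-type signal rose with KO/KO strength at isolated default windows that had no WKY site. The median wild-type strength was 1 (1 to 2) in the 5548 windows with KO/KO strength of 40 to 59, 2 in the 6411 with 60 to 99, 2 (2 to 3) in the 6160 with 100 to 199, and 4 in the 2718 with 200 to 399. It was 7 (6 to 7) in the 623 windows with 400 to 799 and 12 (9 to 13) in the 59 with 800 or more. The KO/wt median rose from 6 to 55 (45 to 68) over the same range. The BN median rose from 7 to 11 (9 to 15), and the WKY median was 19 in the weakest group and 15 (11 to 26) in the strongest. Wild-type strengths of 20 or more thus made up 0.811% of the weakest group and 16.9% (9.48 to 28.5%) of the strongest.

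**Figure D4:**
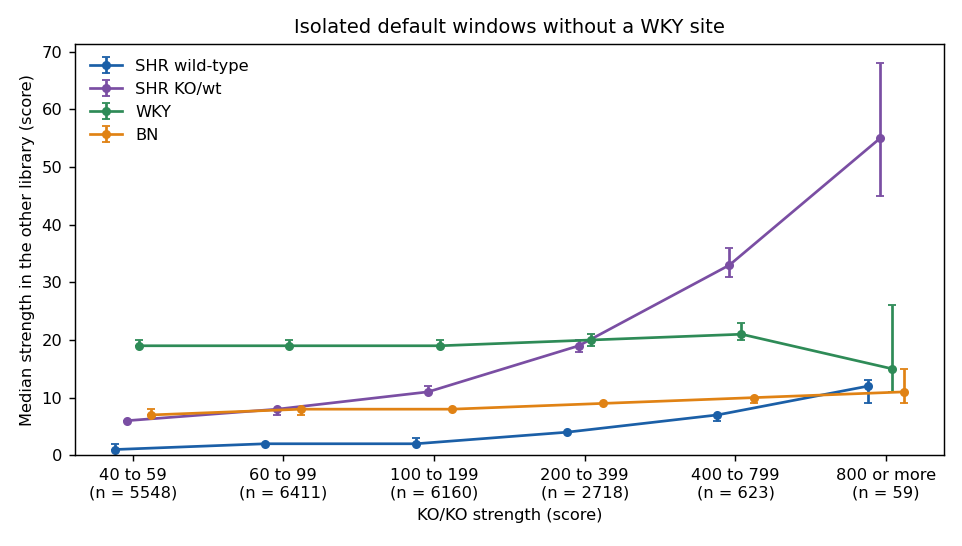
Median strength in wild-type SHR, KO/wt, WKY and BN (authors' scores, linear axis) by KO/KO strength, for all isolated default windows without a WKY site; bars are 95% order-statistic intervals and n is the number of windows. The KO/wt line climbs from 6 to 55 and the wild-type line from 1 to 12, while BN moves from 7 to 11 and WKY stays between 15 and 21.

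Strengths far below 0 went mostly with a neighbour. Among other default windows without a WKY site, 5.49% of those with a neighbour had a wild-type strength of -20 or less. The share was 0.122% of the isolated ones. Among isolated default windows without a WKY site, 26 had a wild-type strength of -20 or less, against the 283 with 20 or more. At KO/KO strengths of 200 or more there were 0 at -20 or less, in groups where 59, 43 and 10 windows had 20 or more. In default windows with a neighbour and no WKY site, as many lay at -20 or less (212) as at 20 or more (211). The balance shifted with KO/KO strength in these windows too, from 63 at -20 or less and 30 at 20 or more for KO/KO strengths of 40 to 59 to 26 and 51 at 200 to 399, 11 and 27 at 400 to 799, and 0 and 19 at 800 or more. In isolated windows with KO/KO strengths of 40 to 59 it was 7 and 45. Wild-type strengths of 20 or more were thus matched in number by strengths of -20 or less at weak default windows with a neighbour, in part at weak isolated ones, and not at the strongest of either kind. Whether strengths on both sides of 0 have the same source was not tested.

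BN has another Prdm9 allele, and the limits did not use its strength, although a BN call alone could bring a window into the table. BN strength was 20 or more in 282 of the 1157 windows, or 24.4% (22.0 to 26.9%), close to the 27.0% of all autosomal windows, which include the BN hotspots themselves, and above the 7.52% of the other default windows. In isolated windows without a WKY site it was 40 of 283, or 14.1% (10.6 to 18.7%), against 5.67% (5.37 to 5.99%) of the other default windows of that kind. The BN medians of these windows, 10 and 8, lay close together. Of the 283 windows, 269 had a KO/KO call, and BN strength was 20 or more in 28 of those, or 10.4% (7.30 to 14.6%). Isolated windows without a WKY site, but with wild-type strength of 20 or more and KO/KO below 40, had a similar share. It was 259 of 2034, or 12.7% (11.4 to 14.3%), so that the share of 14.1% was not particular to default windows.

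In isolated windows with a WKY site BN strength was 20 or more in 105 of 210, or 50% (43.3 to 56.7%). In 19376 isolated windows with a WKY site, wild-type SHR strength of 20 or more and KO/KO strength below 40, called PRDM9 windows here, it was 9.27%. KO/KO strength of 40 or more was in turn rare at such places, with 1.07% of the isolated windows that had a WKY site and wild-type strength of 20 or more.

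The 210 windows on either side of a BN strength of 20 differed in their calls. The 105 with BN strength below 20 had medians of 52 for wild-type, 118 for KO/wt, 92 for KO/KO, 179 for WKY and 9 for BN, and 84, 97, 95, 102 and 0 of them were called. A KO/KO call and a WKY call thus fell in the same window in most of them. The 105 with BN strength of 20 or more had medians of 68, 116, 75, 458 and 108, and 24, 24, 25, 80 and 21 of them were called. In that group 75 windows (71.4%) had no call in any SHR library, against 4 in the other. The 75 owed their place in the table to a call in WKY or BN.

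**Figure D5:**
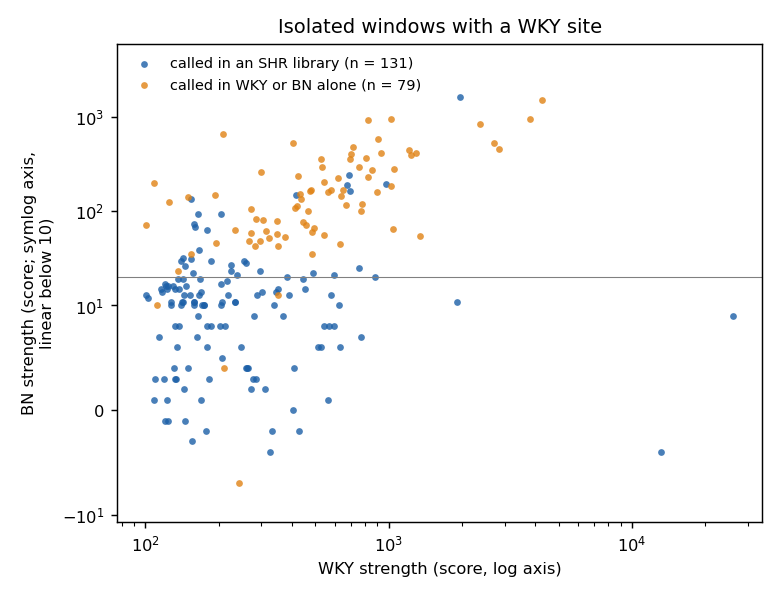
BN strength (symlog axis) against WKY strength (log axis) for the 210 isolated windows with a WKY site, coloured by whether any SHR library had a call; the grey line marks a BN strength of 20. Of the 79 windows called in WKY or BN alone, 75 lie at or above the line.

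Over all sets, 154 of the 1157 windows (13.3%) had no call in any SHR library, against 37.3% of all autosomal windows. The calls of these windows came from WKY or BN. The isolated windows with a WKY site held 79 of them, 37.6% (31.3 to 44.3%) of the 210, against 19.7% of the PRDM9 windows, which are isolated and have a WKY site as well. All 5 strengths were 20 or more in 253 windows, or 21.9% (19.6 to 24.3%), against 0.476% of all autosomal windows. The rule demands this of 2 libraries, and a WKY site of a further one, so that the higher share follows in part from the choice. Among the isolated windows without a WKY site 25 had all 5 at 20 or more.

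The strongest isolated windows with a WKY site included some with BN strength of 20 or more and some without. On chromosome 1 from 153211965 to 153214965 the strengths were 7282 for wild-type, 9559 for KO/wt, 46 for KO/KO, 13250 for WKY and -4 for BN. On chromosome 3 from 53458839 to 53461839 they were 6649, 10158, 44, 26104 and 9. These windows were called in wild-type SHR, KO/wt and WKY and not in KO/KO, and KO/KO strength lay just above its limit. On chromosome 1 from 186986485 to 186989485 the strengths were 1307, 1800, 753, 973 and 193, with calls in all but BN. On chromosome 1 from 38678420 to 38681420 they were 625, 526, 258, 284 and 82, with a call in WKY alone. On chromosome 11 from 30848119 to 30851119 they were 505, 704, 59, 759 and 25, with calls in all but BN.

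The share of isolated WKY-site windows that reached a KO/KO strength of 40 had no steady trend with wild-type strength below 1000. It was 0.988% (0.793 to 1.23%) at wild-type strengths of 20 to 49, 1.40% (1.13 to 1.73%) at 50 to 99, 0.767% (0.534 to 1.10%) at 100 to 199 and 0.914% (0.555 to 1.503%) at 200 to 399, with intervals at 50 to 99 and 100 to 199 that do not overlap. Above 1000 it was 3 of 33 windows, or 9.09% (3.14 to 23.6%), and these 3 were the windows at 7282, 6649 and 1307. Over all windows of a range, default or not, median KO/KO strength was 3 at wild-type strengths of 20 to 49 and 10 at 1000 or more.

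At wild-type strengths below 200, KO/wt strength was higher in isolated windows with both a default and a WKY site than in PRDM9 windows of like wild-type strength. At wild-type strengths of 20 to 49 the median KO/wt strength was 70 in the 79 windows described here and 25 in 7919 PRDM9 windows. KO/wt lay above wild-type strength in 70 of the 79 (88.6%, 79.7 to 93.9%) and in 31.3% of the PRDM9 windows. At wild-type strengths of 50 to 99 the medians were 118 and 59, with KO/wt above wild-type in 72 of 81 (88.9%, 80.2 to 94.0%) and in 36.4%. At 100 to 199 they were 200 and 138, with 25 of 29 (86.2%, 69.4 to 94.5%) and 50.1%. At 200 to 399 the medians were 362 and 319 and the shares 12 of 15 (80%, 54.8 to 93.0%) and 69.1% (66.8 to 71.3%), with overlapping intervals. At 400 to 999 the order was the other way, with medians of 526 and 671 and shares of 2 of 3 windows and 75.5%. Over all strengths the share was 184 of 210, or 87.6%, against 40.5% of the PRDM9 windows. With BN strength below 20 alone, KO/wt lay above in 42 of 49, 34 of 38 and 10 of 11 windows in the 3 ranges below 200.

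A neighbour within 3000 bp accompanied 664 windows, and median strengths of windows and neighbours lay further apart at longer distances. In 460 of them the nearest start was at most 1000 bp away. At this distance the windows had a median wild-type strength of 44.5 and their neighbours 45, and the medians in KO/KO were 100 and 96.5. For the 148 with a start 1001 to 2000 bp away, the wild-type medians were 48 and 34.5. For the 56 with a start 2001 to 3000 bp away, they were 48.5 and 10.5 for wild-type SHR and 99.5 and 16.5 for KO/KO. The nearest neighbour was itself among the 1157 windows in 404 of the 664 cases. From short to long distance these were 345 of the 460, 51 of the 148 and 8 of the 56. Neighbours at short distance were thus mostly chosen by strength too, so that the trend with distance follows in part from the choice.

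In 235 of the 664 windows (35.4%, 31.8 to 39.1%) the window was called in KO/KO while its nearest neighbour was not and had a call in wild-type SHR or WKY. This share was 14.3% over all autosomal windows with a neighbour and 34.7% (33.2 to 36.2%) over the 4004 other default windows with one, so that it was not particular to the windows with wild-type signal. In 194 (29.2%, 25.9 to 32.8%) the roles were reversed, against 13.9% over all autosomal windows with a neighbour and 2.30% over the other default windows, which were chosen for low wild-type strength. Calls in both KO/KO and wild-type SHR within the same window were present in 18 of the 453 windows with a WKY site and a neighbour (3.97%) and in 10 of the 211 with a neighbour alone (4.74%), against 100 of the 210 isolated windows with a WKY site (47.6%). Windows that overlap share fragments, so that their strengths are not independent.

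The strongest windows with a neighbour resembled the isolated ones. With a WKY site, the highest lay on chromosome 1 from 148784173 to 148787173, with 1078 for wild-type, 1121 for KO/wt, 60 for KO/KO, 2954 for WKY and 11 for BN. On chromosome 7 from 21488863 to 21491863 the strengths were 1049, 1299, 529, 404 and 67 in that order. On chromosome 1 they were 931, 1129, 396, 569 and 59 from 186994222 to 186997222, and 706, 858, 389, 406 and 65 from 186372939 to 186375939. On chromosome 7 from 21987694 to 21990694 they were 802, 74, 310, 555 and 124, with KO/wt below both other SHR libraries. BN strength was 11 in the first window and 59 to 124 in the others, and none of them had a BN call. The first was called in wild-type SHR, KO/wt and WKY, and that from 21488863 in all but BN. That from 186994222 was called in wild-type SHR alone, that from 186372939 in KO/wt alone and that from 21987694 in WKY alone.

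Without a WKY site, the highest windows with a neighbour lay on chromosome 1 from 186240490 to 186243490 (409 for wild-type, 388 for KO/wt, 207 for KO/KO, 59 for WKY and 39 for BN) and on chromosome 8 from 120728416 to 120731416 (131, 89, 126, -27 and 14). On chromosome 6 from 58645317 to 58648317 the strengths were 105, 394, 59, 33 and 5. On chromosome 2 they were 102, 202, 69, 85 and 16 from 166406909 to 166409909, and 96, 278, 62, 91 and 37 from 166435961 to 166438961. The window on chromosome 1 was called in WKY alone, although its WKY strength of 59 was below the limit of a WKY site. That on chromosome 8 was called in each SHR library, and that on chromosome 6 in wild-type SHR and KO/wt. On chromosome 2 the first was called in wild-type SHR and KO/KO and the second in KO/wt alone.

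Several of these leading windows lay close together. A criterion chosen after their values were seen, at least 4 loci with starts no more than 100 kb apart, found 9 stretches with 73 of the 1157 windows (6.31%). The stretch on chromosome 1 from 38661913 to 38704597 held 5 of the windows among 6 in the table, all 5 called in WKY alone, with medians of 249 for wild-type, 211 for KO/wt, 64 for KO/KO, 233 for WKY and 63 for BN. Also on chromosome 1, 8 windows lay from 186132814 to 186266176 and 10 from 186369001 to 186414968. Chromosome 7 held 10 from 21437349 to 21523804 and 10 from 21877865 to 22006809, where the wild-type median was 216 and the KO/wt median 43. On chromosome 15, 11 lay from 9487303 to 9591035, with medians of 41 for wild-type, 409 for WKY and 139 for BN. BN strength was 20 or more in 69 of the 73 windows. In the 1084 windows outside these stretches it was 20 or more in 213, or 19.6%. The part that copy number or mapping plays in these stretches was not tested.

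Along the genome, the windows took between 2.52% of the default windows on chromosome 19 (20 of 795) and 6.88% on chromosome 14 (87 of 1265). Chromosome 7 followed with 6.51% (100 of 1537) and chromosome 9 with 5.53% (78 of 1411). For isolated windows without a WKY site, the share ran from 0.503% on chromosome 5 (6 of 1192) to 2.19% on chromosome 14 (21 of 958). The neighbourhood was little different from that of other windows. A median of 10 other windows started within 100 kb, against 9 for the other default windows and 9 for all autosomal windows.

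The windows made up 3.59% of the summed autosomal strength of the wild-type SHR library, 4.50% of KO/wt, 5.38% of KO/KO, 2.43% of WKY and 1.64% of BN. Across the 283 isolated windows without a WKY site, the Spearman correlation of wild-type strength was 0.47 with KO/wt, 0.33 with WKY, 0.12 with BN and -0.18 with KO/KO. Across the 210 isolated windows with a WKY site, wild-type strength had a correlation of 0.63 with KO/wt, 0.44 with WKY and 0.04 with KO/KO, and WKY had 0.49 with BN. These points come from the same 5 libraries, and both limits shape the correlation of wild-type with KO/KO strength, so they are descriptions only.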

How the data were processed

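DMC1 SSDS libraries of adult rat testes, 1 per strain and genotype, entered the table used here. The authors aligned reads to rn5 with a modified bwa (BWA 0.7.12 per the labels, whose processing notes also name bedtools 2.23.0 and MACS2 2.1.0.20150420), called hotspots library by library from type 1 single-stranded fragments with a unique position. The deposited strength is a score with unstated scaling, and the other deposited columns mark a called hotspot by 1 or 0. Windows of 3000 bp merge the calls of 5 libraries by a rule not given in the sources used here. Depth in reads is unknown. H3K4me3 and input libraries were not analysed here.

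Columns were assigned to libraries by strain and genotype. Windows were selected at 40 (KO/KO) and 20 (wild-type SHR) and split at a WKY strength of 100 and a distance of 3000 bp between starts. In each of the 4 sets the 5 windows strongest in wild-type SHR were named, and among isolated windows without a WKY site also the 5 strongest in KO/KO and in KO/wt, besides 2 on each side of each limit and those called in all 5 libraries. Windows, limits and groups were chosen with earlier results of these data known. Coordinates are as deposited. The tools were matplotlib 3.10.9, scipy 1.17.1, numpy 2.4.6 and pandas 2.3.3 under Python 3.11.15, and the functions were tested on simulated data. Alternatives changed each limit, used calls, or added chromosome X.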

Additional observations from a re-analysis of the deposited data

How the results depend on the processing

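The count of windows (1157) became 698 at a KO/KO limit of 80, 1819 at 20, 1905 at a wild-type limit of 15, 561 at 40, 267 by calls in both KO/KO and wild-type SHR, 694 with a call in KO/KO added and 398 with a call in wild-type SHR added. The isolated windows without a WKY site (283) became 833 at a wild-type limit of 15, 39 at 40, 83 by calls in both and 66 with the wild-type call. In the order KO/KO limit of 20, wild-type limits of 15 and 40, calls in both, call in KO/KO and call in wild-type SHR, the share with a WKY site (57.3%) was 64.4, 36.7, 85.4, 62.5, 43.7 and 70.9%, and the median KO/wt strength (72) was 63, 46, 123, 91, 59 and 103.5, while the share with KO/wt strength of 20 or more (90.3%) was 87.8, 75.6, 98.6, 98.9, 85.4 and 98.2%. The WKY share was also 47.7% at a KO/KO limit of 80, 71.4% and 36.8% at WKY limits of 50 and 200, and 52.0% with a call in at least 1 SHR library, which was chosen after seeing the data. The share with a neighbour (57.4%) was 44.9% and 65.6% at wild-type limits of 15 and 40, 16.1% by calls in both, 43.9% with the KO/KO call, and 52.5% and 65.7% for distances of 2000 and 5000 bp. The share with BN strength of 20 or more (24.4%) was 19.6% and 32.3% at wild-type limits of 15 and 40, 16.5% by calls in both, 13.3% and 17.1% with the KO/KO or wild-type call, 14.9% with a call in at least 1 SHR library and 14.8% at a BN limit of 40. KO/wt strength was 40 or more in 74.2%. Of 73 alternative values, each from other windows or limits, 47 moved. The other 26 lay inside the 95% interval of the reported percentage or median, or within 1.5 times the reported count. What moved the 47 was not tested. No paired analysis was possible because each strain and genotype has a single library and nothing was tested. Unknown depth in reads limits every strength near 20.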

Other observations

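Chromosome X was outside the chosen chromosomes. There, 148 of the 1192 windows with KO/KO strength of 40 or more also had a wild-type SHR strength of 20 or more, or 12.4% (Wilson 95% interval 10.7 to 14.4%). A WKY strength of 100 or more was found in 75 of them (50.7%) and a neighbour within 3000 bp in 96 (64.9%), and 32 had neither. Their median strengths were 38 for wild-type, 110 for KO/wt, 327.5 for KO/KO, 100 for WKY and 9 for BN. Chromosome X is present once in males, and the strengths were not adjusted for it.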
